A study of Mus musculus with 8 samples.

Results

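The proteasome genes were examined in hearts of C57BL/6 mouse embryos at E18.5. The proteasome is the large protease of the cytosol and nucleus that degrades proteins tagged with ubiquitin. Its 20S core is a barrel of alpha and beta rings with the proteolytic sites inside, and the 19S regulatory particle on its end recognizes, unfolds and feeds in the tagged protein. In cardiomyocytes, which renew their contractile proteins slowly, this pathway turns over damaged and surplus sarcomere proteins. Members were all noncontrol probes whose accession maps to a gene symbol that starts with Psma, Psmb, Psmc, Psmd, Psme or Psmg. This rule, which used no measured value, found 49 of the 19096 genes named on the arrays, measured by 68 of the 41174 probes.

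Total heart RNA of 4 wild-type (WT) and 4 SIRT1 KO embryos was hybridized to 1-color mouse oligonucleotide arrays, 1 array per heart. SIRT1 is an NAD-dependent protein deacetylase, and its gene was deleted in the germ line of the SIRT1 KO embryos. All dams were on chow diet and no embryo received a treatment, the embryos came from matings of heterozygotes, and hearts of both sexes were used. Because SIRT1 was missing from the whole embryo, a difference in the heart cannot be assigned to heart cells alone. In whole-heart RNA, fewer cells of a type and less RNA per cell cannot be told apart either.

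Every level below is the log2 probe signal minus the 75th percentile of its own array, and every difference is SIRT1 KO minus WT on that log2 scale. A probe was tested where the scanner software called it well above background on 4 or more of the 8 arrays, and passed the threshold at a limma adjusted p under 0.05 over all 25615 probes tested. All 12 cardiomyocyte markers on the arrays stood above background. Of 7 thymus and T cell markers on the arrays, 5 were above background on some array, Cd4 and Foxn1 were so on none, and their summed level was 0.0572 to 0.173 in WT and 0.101 to 0.115 in SIRT1 KO, in units of the 75th percentile signal. Dntt, the only 1 of them tested, was 0.80 ± 0.25 (SE) higher without overlap, but did not pass (limma adjusted p = 0.114). The WT arrays lay on 1 slide with 1 scan and the SIRT1 KO arrays on another, so slide, scan and genotype cannot be told apart. The targeted gene did not check the labels: the brighter Sirt1 probe was 0.54 ± 0.11 higher (SE, n = 4 per genotype, limma adjusted p = 0.0323, passing in 6 of 17 alternatives) and the other differed by -0.11 (limma adjusted p = 0.589). The genotypes below therefore rest on the labels, and SIRT1 KO means the hearts labelled so.

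Of the 49 genes, 47 encode proteasome subunits, activators or dedicated chaperones. They are Psma1 to Psma8 of the alpha rings, Psmb1 to Psmb4 of the beta rings, the constitutive catalytic Psmb5, Psmb6 and Psmb7, the inducible or thymic catalytic Psmb8, Psmb9, Psmb10 and Psmb11, the 19S ATPases Psmc1 to Psmc6, the 19S non-ATPase subunits Psmd1, Psmd2, Psmd3, Psmd4, Psmd6, Psmd7, Psmd8, Psmd11, Psmd12, Psmd13 and Psmd14, the base chaperones Psmd5, Psmd9 and Psmd10, the activators Psme1 to Psme4 and the assembly chaperones Psmg1 to Psmg4. The other two, Psmc3ip and Psme3ip1, match the symbols but are no subunits: the first is a meiotic recombination factor and the second binds the activator encoded by Psme3. In all, 65 probes of 48 genes passed the filter on low signal, each well above background on all 8 arrays. Psmb11, the thymoproteasome catalytic subunit of the thymic cortex, was well above background on no array with either of its probes. The third probe left out was 1 of the 3 for Psme3ip1.

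The sequences just upstream of the genes are shown for members the results turn on. They are Psmd1, Psmc1, Psma1 and Psmb5. Among the member genes of the standard 26S particle, Psmd1 and Psmc1 had the lowest fitted differences and Psma1 the highest. Psmb5 is a catalytic gene near 0. Each run is the 250 bases before the gene start in RefSeq on build GRCm38.p6, 5′ to 3′ on the strand of the gene. Capitals mark matches on either strand to TGACNNNGC (the core of the antioxidant response element, bound by NRF1 and NRF2), CCAAT (bound by NF-Y), CCGGAAG (bound by ETS factors), GAAANNGAA (part of the interferon-stimulated response element) or CACGTG (the E-box bound by MYC and USF factors).
Psmd1, chr1:86064369-86064618, + strand: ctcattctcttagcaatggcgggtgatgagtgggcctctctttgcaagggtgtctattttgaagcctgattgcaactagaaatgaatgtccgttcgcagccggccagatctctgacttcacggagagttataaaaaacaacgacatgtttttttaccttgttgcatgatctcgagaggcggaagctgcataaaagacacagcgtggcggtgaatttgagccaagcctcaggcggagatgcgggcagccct
Psmc1, chr12:100109952-100110201, + strand: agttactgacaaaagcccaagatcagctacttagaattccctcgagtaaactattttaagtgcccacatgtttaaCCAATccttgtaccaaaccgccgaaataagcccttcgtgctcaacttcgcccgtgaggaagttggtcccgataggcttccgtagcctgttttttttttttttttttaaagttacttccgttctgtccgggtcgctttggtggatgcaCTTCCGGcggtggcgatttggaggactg
Psma1, chr7:114276117-114276366, - strand: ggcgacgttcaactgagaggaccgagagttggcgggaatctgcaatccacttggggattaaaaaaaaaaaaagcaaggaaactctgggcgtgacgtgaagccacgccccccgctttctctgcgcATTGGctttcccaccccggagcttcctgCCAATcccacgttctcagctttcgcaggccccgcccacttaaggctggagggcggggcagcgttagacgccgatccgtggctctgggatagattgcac
Psmb5, chr14:54617996-54618245, - strand: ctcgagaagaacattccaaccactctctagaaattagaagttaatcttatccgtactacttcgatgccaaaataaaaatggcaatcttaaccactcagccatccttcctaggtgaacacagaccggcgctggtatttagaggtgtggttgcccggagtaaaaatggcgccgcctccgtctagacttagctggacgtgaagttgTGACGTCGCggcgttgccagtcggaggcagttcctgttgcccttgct

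The window of Psmd1 held none of the 5 motifs. The window of Psmc1 held 1 match to CCAAT and 1 to CCGGAAG, that of Psma1 held 2 to CCAAT and that of Psmb5 held 1 to TGACNNNGC. The motifs do not overlap each other in these windows. Of the members, 41 genes had 45 windows in the RefSeq table. CCGGAAG was present in 14 of these 45 windows (31.1%), of 13 genes, against 6.91% of all 32851 windows of this length. The carriers included the ATPase genes Psmc1, Psmc2 and Psmc6 and the non-ATPase genes Psmd2, Psmd4, Psmd6, Psmd11 and Psmd12. TGACNNNGC was present in 5 windows (11.1%), those of Psmb5, Psmb6, Psmc6, Psmd9 and Psmd12, against 10.2% of all windows. CCAAT was present in 16 windows (35.6%, against 33.8%), GAAANNGAA in 3 (6.67%, against 7.13%) and CACGTG in 5 (11.1%, against 6.02%). These matches are descriptions of letters, not binding sites.

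In the SIRT1 KO hearts the signal of Psmd1 was lower in all 4 hearts, and that of the alpha subunit gene Psma8 was lower in all 4 as well. Each of these genes was read by a single probe, so no other probe could check it. No other member probe passed the threshold, and none was called higher. The 2 calls make 3.08% of the 65 member probes, against 4.88% of all probes tested. Both calls were lower, where 0.910% of all probes were called lower. By unadjusted limma p under 0.05, 7 member probes (10.8%) were found, against 21.5% of all probes. Counted in both directions, the members' share was thus below the background at either threshold, and counted for lower calls alone it was above it. Of the 8539 brightest probes tested, among which most members lie, 1.83% were called.

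Psmd1 encodes the largest subunit of the 19S base, the scaffold on which ubiquitin receptors dock. Its level was 2.003, 1.89, 1.91 and 1.87 in WT replicates 1 to 4. It was 1.60, 1.38, 1.63 and 1.64 in SIRT1 KO replicates 1 to 4. The genotypes did not overlap, and SIRT1 KO replicate 2 was the lowest. The means were 1.92 ± 0.06 in WT and 1.56 ± 0.12 in SIRT1 KO (SD, n = 4), a difference of -0.35 ± 0.08 (SE), or 0.782-fold, with a 95% interval from -0.54 to -0.17. The limma adjusted p was 0.0419. The exact two-sided permutation p was 0.0286, the smallest that 4 against 4 hearts allow. Under the 17 alternative processings the difference lay between -0.57 and -0.29, and its limma adjusted p between 0.0110 and 0.108. It passed in 6 of them. With 1 heart left out it passed only without SIRT1 KO replicate 3.

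Psma8 encodes an alpha subunit known from the proteasome of male germ cells, where it takes the place of the Psma7 product. Its level was -1.04, -0.89, -1.22 and -0.69 in WT replicates 1 to 4. It was -1.55, -1.72, -1.35 and -1.68 in the SIRT1 KO replicates. The genotypes did not overlap, with WT replicate 3 and SIRT1 KO replicate 3 nearest to each other. The means were -0.96 ± 0.22 and -1.58 ± 0.17 (SD, n = 4). The difference was -0.62 ± 0.13 (SE), or 0.652-fold, with a 95% interval from -0.91 to -0.33 (limma adjusted p = 0.0291, exact permutation p = 0.0286). It passed in 8 of the 17 alternatives, with limma adjusted p between 0.00827 and 0.0882, and with 1 heart left out it passed in the fits that left out replicate 3 of WT or replicate 3 of SIRT1 KO, and in no other. The single Psma7 probe, whose product sits at that position of the ring in body tissues, differed by 0.15 ± 0.12 (SE, limma adjusted p = 0.494).

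**Figure D1:**
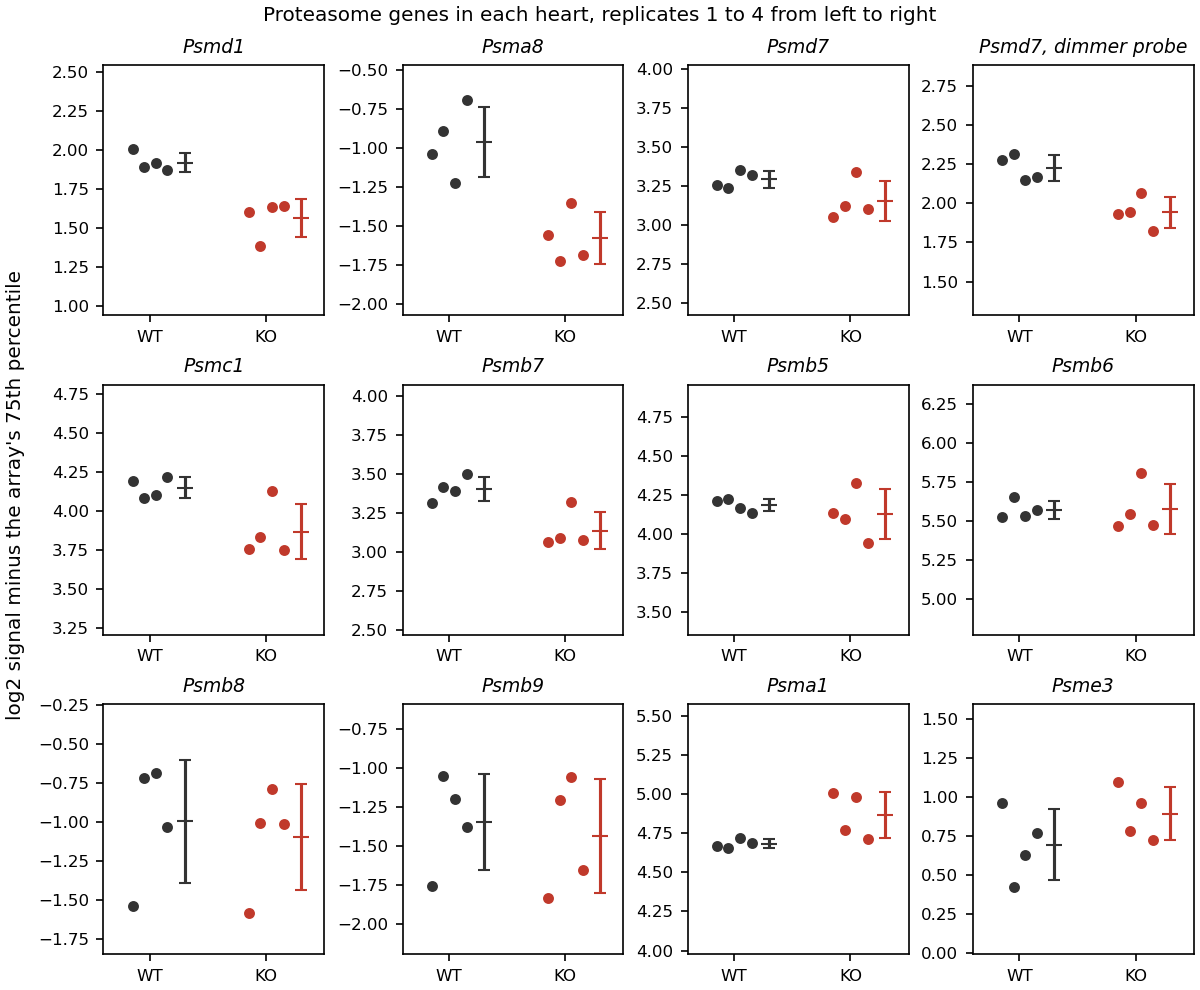
Level of selected proteasome genes in each heart, as log2 signal minus the array's 75th percentile, with WT in black and SIRT1 KO in red. Points are hearts, replicates 1 to 4 from left to right, and bars are the mean ± SD (n = 4); every panel spans the same log2 range. Psmd1 and Psma8 do not overlap between genotypes, and for Psmc1 and Psmb7 SIRT1 KO replicate 3 lies apart from the other 3 SIRT1 KO hearts.

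A gene's brightest probe, the one with the highest mean signal over the 8 arrays, is used from here on as its value. By sign alone, 38 of the 48 genes had a fitted difference below 0, where 51.6% of the 13594 named genes tested did. Among all 65 member probes, 49 were below 0, against 48.3% of all probes. The median over the 48 genes was -0.10, against -0.01 over the 13594 named genes and 0.01 over all probes tested. The single differences were small: with SEs between 0.07 and 0.22, 46 of the 48 genes did not pass, and a value such as the median is about the size of 1 SE. A p that misses the threshold does not show that the genotypes had equal levels. The counts and the median describe the genes and are not a test of the group.

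Most member probes are bright. Of the 48 genes, 44 had their value among the 8539 brightest of the probes tested. Over those 8539 probes the median difference was -0.03 and 58.4% were below 0 under this scaling. The share below 0 was 51.0% with cyclic loess, 53.3% after quantile normalization, 84.7% when arrays were scaled to their median and 93.2% with no scaling. The median of the proteasome genes was thus 0.06 lower than that of the bright probes, and 0.10 lower than that of all probes.

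By role, 16 of the 17 member genes of the 19S particle were below 0, as were all 3 base chaperone genes and all 3 inducible catalytic genes tested. The 17 leave out Adrm1 and Sem1, 19S genes outside the symbol rule. Adrm1 was at 0.32 on its brighter probe and at -0.13 on the other, and Sem1 was below 0. All 6 ATPase genes, whose products form the ring that unfolds the substrate, had a difference below 0, from -0.28 for Psmc1 to -0.06 for Psmc6, and none passed. Of the 11 non-ATPase genes, 10 were below 0, with a median of -0.10. The exception was Psmd2, a base scaffold like Psmd1, at 0.02 ± 0.08 (SE, limma adjusted p = 0.910). The lowest after Psmd1 were Psmd8 at -0.23, Psmd6 at -0.20 and Psmd13 at -0.17. Psmd14, the deubiquitinase that removes the ubiquitin chain, was at -0.09, and the ubiquitin receptor gene Psmd4 at -0.10. The 3 genes of base assembly chaperones, Psmd5, Psmd9 and Psmd10, were at -0.24, -0.13 and -0.11, and none passed.

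Psmc1 had the lowest fitted value among the genes of the standard particle after Psmd1. Its level was 4.19, 4.08, 4.10 and 4.22 in WT and 3.76, 3.84, 4.12 and 3.75 in SIRT1 KO replicates 1 to 4. SIRT1 KO replicate 3 lay inside the WT range and the other 3 below it. The difference was -0.28 ± 0.10 (SE, limma adjusted p = 0.142, exact permutation p = 0.0857). Psmd7 encodes the lid partner of the Psmd14 deubiquitinase, and its probes differed in size. The dimmer probe, which was named after its values were seen, was at 2.28, 2.31, 2.15 and 2.17 in WT and at 1.93, 1.95, 2.06 and 1.83 in SIRT1 KO. These do not overlap, but the difference of -0.28 ± 0.08 (SE) did not pass (limma adjusted p = 0.0791). On the brighter Psmd7 probe the difference was -0.14 ± 0.08 (SE, limma adjusted p = 0.368), with SIRT1 KO replicate 3 at 3.34 inside the WT range of 3.24 to 3.35.

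Of the 14 genes of the standard alpha and beta rings of the 20S core, 9 were below 0 and 5 above, with a median of -0.07, and none passed. Psma1 was the highest, at 4.67, 4.66, 4.72 and 4.69 in WT and 5.01, 4.77, 4.98 and 4.72 in SIRT1 KO replicates 1 to 4. SIRT1 KO replicate 4 overlapped the WT hearts, and the difference was 0.19 ± 0.09 (SE, limma adjusted p = 0.246, exact permutation p = 0.0571). Psma2 to Psma6 lay between -0.13 and -0.07. Of the structural beta genes, Psmb1 was at -0.17 and Psmb3 at -0.07, while Psmb2 and Psmb4 were at 0.01 and 0.00.

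The 3 constitutive catalytic genes did not move alike in their point estimates. Psmb7, which encodes the trypsin-like site, was at 3.31, 3.41, 3.39 and 3.50 in WT and 3.07, 3.09, 3.32 and 3.08 in SIRT1 KO. Replicates 1, 2 and 4 were below every WT heart and replicate 3 was not. The difference was -0.27 ± 0.08 (SE), with a 95% interval from -0.46 to -0.08 (limma adjusted p = 0.111, exact permutation p = 0.0571). Psmb5, of the chymotrypsin-like site, was at 4.21, 4.23, 4.17 and 4.14 in WT and at 4.13, 4.10, 4.33 and 3.94 in SIRT1 KO. Here the highest and the lowest heart were both SIRT1 KO, replicates 3 and 4. Its difference was -0.06, with a 95% interval from -0.26 to 0.14 (limma adjusted p = 0.738). Psmb6, of the caspase-like site, was at 5.53, 5.65, 5.53 and 5.57 in WT and at 5.47, 5.54, 5.81 and 5.48 in SIRT1 KO. Its difference was 0.00, with an interval from -0.20 to 0.21 (limma adjusted p = 0.988). Whether the 3 genes differ from each other in their response was not tested.

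Their inducible counterparts, which replace them in cells exposed to interferon and in immune cells, varied mostly between hearts of the same genotype. Psmb8 was at -1.54, -0.72, -0.69 and -1.03 in WT and at -1.58, -1.003, -0.78 and -1.01 in SIRT1 KO. Psmb9 was at -1.76, -1.05, -1.20 and -1.38 in WT and at -1.83, -1.20, -1.05 and -1.65 in SIRT1 KO. In both genes the lowest heart of each genotype was replicate 1, and the genotypes overlapped. The differences were -0.10, with an interval from -0.60 to 0.40, and -0.09, with an interval from -0.55 to 0.37 (limma adjusted p = 0.825 and 0.834). Psmb10 was steadier, at 4.96, 4.96, 4.90 and 4.88 in WT and 4.81, 4.88, 4.96 and 4.72 in SIRT1 KO, a difference of -0.09 with an interval from -0.25 to 0.08 (limma adjusted p = 0.544). The leukocyte markers, all 12 of which stood above background on some array, had a summed level of 4.12, 6.08, 4.78 and 4.90 in WT and of 4.01, 5.34, 6.99 and 5.26 in SIRT1 KO replicates 1 to 4, in units of the 75th percentile signal. Replicate 1 was the lowest heart of each genotype here too. None of the 11 tested passed, though the macrophage gene Cd68 was 0.64 ± 0.22 (SE) higher without overlap (limma adjusted p = 0.133), and their part in these values was not tested.

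The activators open the 20S gate in place of the 19S particle, and none of their genes passed. Psme3, of the nuclear activator PA28 gamma, had the highest fitted value of all members at 0.20 ± 0.13 (SE, limma adjusted p = 0.413). It was at 0.96, 0.42, 0.63 and 0.77 in WT and at 1.10, 0.78, 0.96 and 0.73 in SIRT1 KO, with broad overlap. Psme1 and Psme2, of the interferon-inducible activator, were at -0.06 and 0.01, and Psme4 at -0.05. Among the chaperones that assemble the 20S rings, Psmg4 was at 2.49, 2.59, 2.43 and 2.44 in WT and at 2.68, 2.74, 2.72 and 2.47 in SIRT1 KO. All SIRT1 KO hearts but replicate 4 lay above the WT hearts, a difference of 0.16 ± 0.08 (SE, limma adjusted p = 0.300, exact permutation p = 0.0857). Psmg1, Psmg2 and Psmg3 were at -0.05, -0.01 and -0.12. Of the symbols that are no subunits, Psmc3ip was at -0.11 and Psme3ip1 at 0.06.

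**Figure D2:**
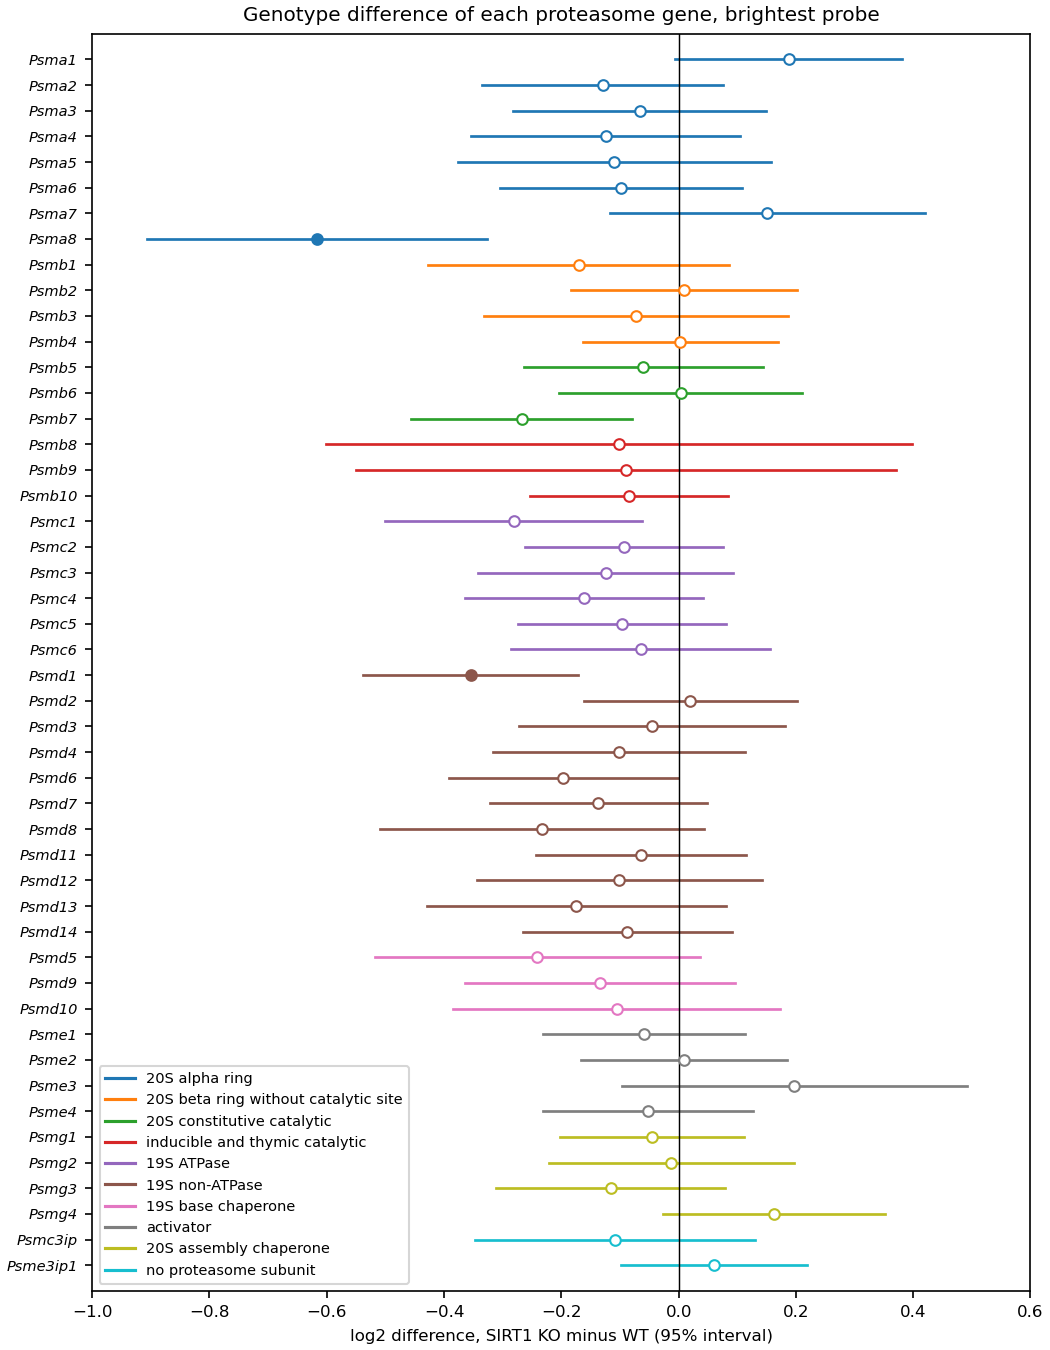
Difference between genotypes (SIRT1 KO minus WT, log2) for the brightest probe of each of the 48 tested genes, with its 95% interval from limma, ordered and colored by role. Filled points, for Psma8 and Psmd1, passed the threshold. All 6 ATPase genes and 10 of the 11 non-ATPase member genes of the 19S particle have a point below 0, most with intervals that span 0.

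Where a gene had several probes they mostly fell on the same side. Of 15 genes with more than 1 tested probe, 8 had all probes below 0, 2 had all above, and 5 were split. The probes of a gene differed by 0.01 to 0.21 in their log2 difference.

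Heart by heart, the 31 member genes of the standard particle (14 of the 20S rings and 17 of the 19S particle) split the SIRT1 KO hearts. Relative to each gene's WT mean, their median deviation was between -0.01 and 0.01 in the 4 WT hearts. It was -0.10, -0.16, 0.09 and -0.20 in SIRT1 KO replicates 1 to 4, so that replicate 3 was above the WT hearts and the other 3 were below. The medians of the 8539 bright probes were -0.03, -0.05, 0.02 and -0.06, against -0.01 to 0.02 in the WT hearts, so for these probes replicate 3 was level with the highest WT heart. Over all probes tested the median deviation of every SIRT1 KO heart was between 0.01 and 0.02. In replicates 1, 2 and 4, respectively 26, 28 and 28 of the 31 genes were below their WT mean, and in replicate 3 only 5 were.

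Against the range of the WT hearts the split was as clear. In SIRT1 KO replicate 1, 19 of the 31 genes were below all 4 WT hearts, in replicate 2 it was 23, and in replicate 4 it was 25. Of the 8539 bright probes, 33.7%, 36.2% and 41.2% were so in these hearts, against 61.3%, 74.2% and 80.6% of the proteasome genes. In replicate 3 only Psmd1 was below all WT hearts, and 16 of the 31 genes (51.6%) were above all of them, as were 27.4% of the bright probes. On the array of replicate 3 the 75th percentile signal was 777 and 59.5% of probes stood well above background, both the lowest of the 8 arrays. The other arrays had 863 to 1033 and 60.6% to 64.9%. Their part in the split was not tested.

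**Figure D3:**
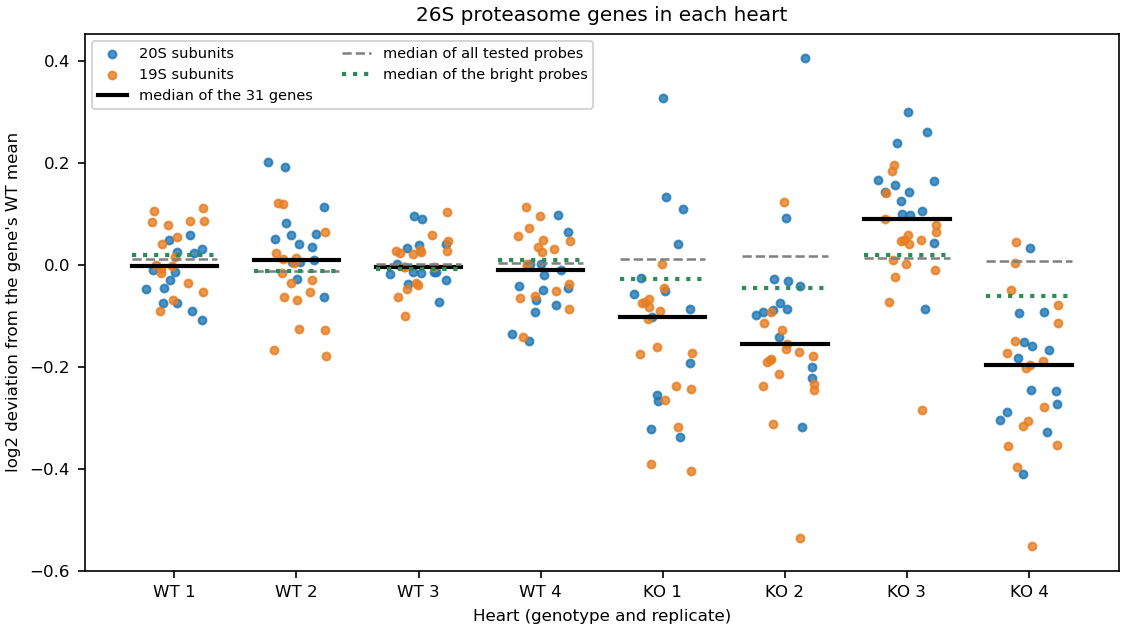
Deviation of the 31 member genes of the 26S proteasome from their WT mean (log2) in each heart, with 20S genes in blue and 19S genes in orange. Black bars are the median of the 31 genes dotted bars that of the bright probes and dashed bars that of all tested probes; SIRT1 KO replicates 1, 2 and 4 have medians of -0.10, -0.16 and -0.20, and replicate 3 of 0.09, while the dotted bars lie between -0.06 and 0.02 and the dashed bars stay near 0.

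The median correlation between the genes rested on the same heart. Within genotypes, over the 8 hearts, the median correlation between pairs of the 31 genes was 0.54, against 0.05 between pairs of the bright probes and 0.00 between pairs of all probes. Without SIRT1 KO replicate 3 it was 0.06 (0.02 for the bright probes). Over the 4 WT hearts alone it was -0.02 (0.02 for the bright probes). Over the 4 SIRT1 KO hearts alone, replicate 3 among them, it was 0.73 (0.08 for the bright probes). These correlations share arrays and are a description. In deviations from the genotype means over the 8 hearts, the genes most like the mean of the others were Psmb5 (r = 0.95), Psmb1 (0.93), Psmc2 (0.93) and Psmc4 (0.92). Without SIRT1 KO replicate 3 their r was 0.95, 0.81, 0.67 and 0.72. A high r was not limited to subunits: that of Psmc3ip with the mean of the 31 genes was 0.87, and 0.24 without that heart. The r of Psmd1 was 0.16, that of Psmc5 0.06 and that of Psmg1 -0.05, and without that heart -0.52, -0.17 and -0.02.

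The count of separated genes depended on that heart. With all hearts, 3 member probes (4.62%) had genotypes that did not overlap, those of Psmd1, Psma8 and the dimmer Psmd7 probe, against 13.7% of all probes. All 3 were lower in SIRT1 KO, where 5.09% of all probes were separated in that direction. Without SIRT1 KO replicate 3, 25 member probes (38.5%) did not overlap, against 25.5% of all probes. All 25 were lower, where 11.1% of all probes were. Because replicate 3 was singled out by these same genes, leaving it out had to raise their count, and nothing is read from that comparison. In that fit 5 of the 65 member probes passed the threshold, those of Psma8, Psmb7, Psmc1, Psmd1 and the dimmer Psmd7 probe. Of all 25615 probes tested, 1825 passed in the same fit, so calls rose over the whole array as well. The median of the 48 genes was -0.16. With any other heart left out, 1 member probe passed without WT replicate 3 and 0 in the other 6 fits by limma.

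Markers of other tissues also differed between the SIRT1 KO hearts. The summed level of the 7 liver markers on the arrays was 10.8 to 26.6 in WT, and 114, 17.8, 12.5 and 59.7 in SIRT1 KO replicates 1 to 4, in units of the 75th percentile signal. None of the 6 tested passed. The 9 erythroid markers summed to 220 to 261 in WT and to 174 to 216 in SIRT1 KO. Of 6 tested, the embryonic globin gene Hbb-y (0.92) and the erythropoietin receptor gene Epor (0.66) passed, both higher. The 12 cardiomyocyte markers summed to 1697 to 1858 in WT and to 1842 to 2092 in SIRT1 KO, highest in replicate 3, and none passed on its brightest probe. For Myh7, the slow myosin heavy chain gene, both probes were higher without overlap, and the dimmer passed (0.36, limma adjusted p = 0.0283) where the brighter did not (0.31). The part of the liver, erythroid and cardiomyocyte markers in the proteasome values was not tested.

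The scaling between arrays moved these values. Scaling to the array median moved the median of all probes from 0.01 to -0.12, and no scaling moved it to -0.21. The median of the proteasome genes was then -0.22 and -0.31, again 0.10 below that of all probes. With quantile normalization it was 0.05 below and with cyclic loess 0.06 below. Against the bright probes it stayed between 0.056 and 0.065 below under these scalings. Under every scaling each called member was lower in SIRT1 KO. Over all probes 81.4% of the 1250 calls were higher, but 71.5% with cyclic loess, 63.9% after quantile normalization, 38.1% when arrays were scaled to their median and 10.1% with no scaling. The number of member genes below 0 rose from 38 to 44 with median scaling and to all 48 with no scaling, as the median of all probes moved down.

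**Figure D4:**
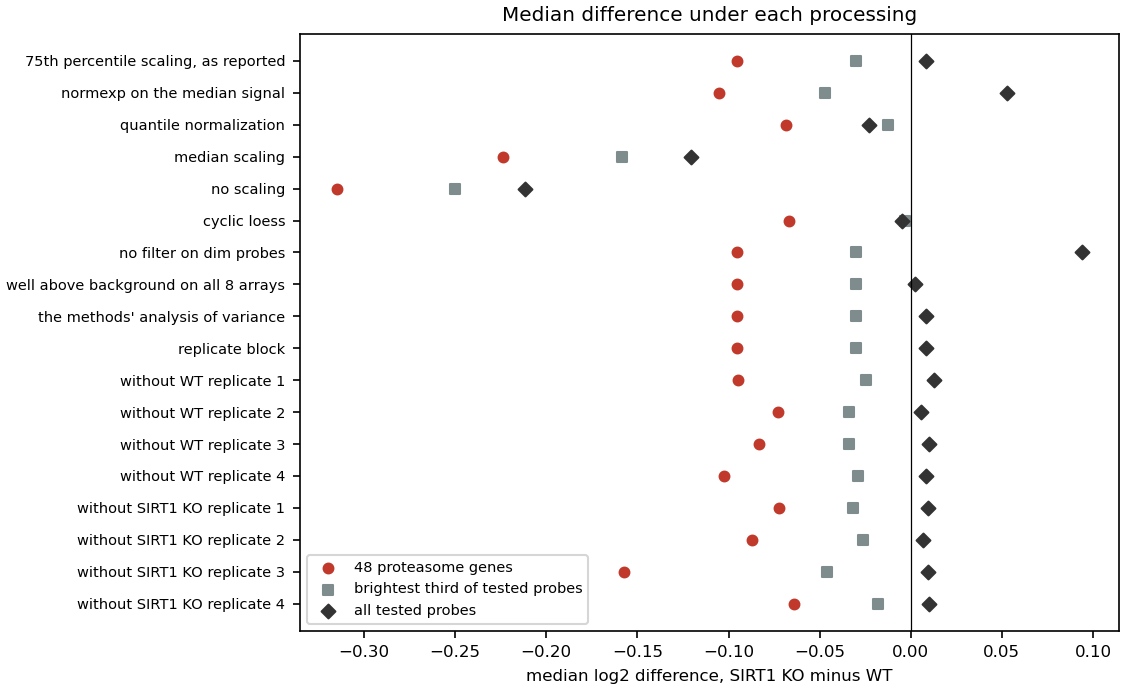
Median log2 difference (SIRT1 KO minus WT) of the 48 proteasome genes (red circles), the brightest tested probes (gray squares) and all tested probes (black diamonds) under each processing. The proteasome median lies left of both others in every row, at -0.10 against -0.03 and 0.01 as reported, and farthest from 0 at -0.31 with no scaling.

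Outside the members, 46 further genes of the ubiquitin-proteasome pathway were listed, of which 43 were on the arrays and 42 were tested with 73 probes. Among these probes 1 rose and 2 fell, 4.11% against the 4.88% of all probes, so the list was called no more often than the background. The median over the 42 genes was -0.03. The rise was Trim55, which encodes MuRF2, a ubiquitin ligase of the sarcomere. It was at 1.27, 1.65, 1.23 and 1.74 in WT and at 3.56, 3.66, 2.48 and 2.82 in SIRT1 KO replicates 1 to 4. All SIRT1 KO hearts lay above all WT hearts, with replicate 3 the lowest of them. The difference was 1.66 ± 0.26 (SE), or 3.15-fold, with a 95% interval from 1.06 to 2.25 (limma adjusted p = 0.00895, exact permutation p = 0.0286), and it passed in 16 of 17 alternatives. The related Trim63 (MuRF1) was at 0.07, Trim54 (MuRF3) at -0.26 and Fbxo32 (atrogin-1) at -0.22, and none passed.

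The probes that fell were not the brightest of their genes. For Usp14, a deubiquitinase bound to the 19S base, the dimmest of 3 probes was -0.16, 0.01, -0.07 and -0.12 in WT and -0.38, -0.34, -0.49 and -0.55 in SIRT1 KO, without overlap. It differed by -0.35 ± 0.08 (SE, limma adjusted p = 0.0363), while the brightest differed by -0.16 (limma adjusted p = 0.339). For the class I antigen gene H2-K1, which presents peptides the proteasome cuts, the dimmest of 3 probes was -1.25, -1.14, -1.28 and -1.26 in WT and -2.10, -1.59, -1.54 and -1.99 in SIRT1 KO. It differed by -0.57 ± 0.13 (SE, limma adjusted p = 0.0435), the brightest by -0.34 (limma adjusted p = 0.0963) and the remaining probe by -0.06, with overlap (limma adjusted p = 0.820). Under the 17 alternatives the Usp14 probe passed in 6 and the H2-K1 probe in 7. With 1 heart left out the Usp14 probe passed in 0 of 8 fits by limma (as reported, its unadjusted p was 0.00140) and the H2-K1 probe in 1, that without SIRT1 KO replicate 3. H2 genes are near-identical in places, so a probe may read more than 1 of them. Ufd1, of the segregase that extracts ubiquitin-tagged proteins, had the next smallest p on its brightest probe. It was at 1.01, 1.22, 1.09 and 1.00 in WT and at 0.76, 0.70, 0.92 and 0.81 in SIRT1 KO, without overlap, a difference of -0.28 ± 0.08 (SE, limma adjusted p = 0.0900).

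The other listed groups gave no further calls. The 16 probes for class I antigen processing lay from -0.57 to 0.47. Of them 11 were below 0, 3 were lower without overlap and 1 was higher without overlap (4 of 16, against 13.7% of all probes), and 7 had an unadjusted p under 0.05 (43.8%, against 21.5% of all probes), but the H2-K1 probe alone passed. B2m, the light chain of class I molecules, was at -0.28 (limma adjusted p = 0.210) on its brighter probe and at -0.01 (limma adjusted p = 0.961) on the other. The probe that was higher without overlap was a dimmer one of Tapbp, of the peptide-loading complex, at 0.47 ± 0.12 (SE, limma adjusted p = 0.0556). B2m and Tapbp were singled out after their values were seen. The 15 probes for ubiquitin shuttles and the segregase lay from -0.28 to 0.15 with 12 below 0, and the 10 for ubiquitin and its activating enzymes lay from -0.15 to 0.07 with 6 below 0.

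None of the 7 probes for genes that control subunit transcription passed the threshold. Nfe2l1, whose product NRF1 raises transcription of subunit genes when proteasome activity is low, was at 4.03, 4.11, 4.06 and 4.16 in WT and at 4.07, 4.05, 4.12 and 4.21 in SIRT1 KO. Its difference was 0.02, with a 95% interval from -0.14 to 0.18 (limma adjusted p = 0.882). Nfe2l2, of the oxidative stress factor NRF2, was at 0.07, with an interval from -0.14 to 0.29. Nfe2l3, of the related factor NRF3, was at -3.93, -4.02, -4.04 and -4.19 in WT and at -3.39, -1.75, -3.19 and -3.50 in SIRT1 KO on its brighter probe. The genotypes did not overlap and SIRT1 KO replicate 2 was the highest, but the difference of 1.09, with an interval from 0.32 to 1.86, did not pass (limma adjusted p = 0.113), and the dimmer probe differed by -0.37. Adrm1, a ubiquitin receptor of the 19S particle outside the symbol rule, was at 0.32 ± 0.16 (SE, limma adjusted p = 0.295) on its brighter probe and at -0.13 on the other. Pomp, the maturation chaperone of the 20S core, was at 0.04 and the 19S subunit gene Sem1 at -0.07. The polyubiquitin gene Ubb was at 0.06. None of these passed.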

How the data were processed

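Total RNA of E18.5 mouse hearts (4 WT and 4 SIRT1 KO embryos) was labelled with Cy3 by the authors and read on 1-color Agilent whole-genome arrays. The deposited files hold the fluorescence intensity of each spot as given by Feature Extraction (version 12 in the submitters' processing notes), with the processed signal already background-corrected. Groups followed the labels. Control spots and spots flagged as outliers were left out, log2 processed signals were averaged per probe, and the array's 75th percentile over noncontrol spots was subtracted. Depth does not apply to arrays, and 4 arrays per genotype limit the precision. The array accession named the gene for 28223 of 41174 probes (68.5%) through RefSeq gene tables (GRCm38.p6). Probes above background on 4 or more of the 8 arrays were fitted for genotype with limma 3.58.1 in R 4.3.3, with Benjamini-Hochberg adjustment over all probes tested. The test was checked on simulated data. Exact permutation tests and summaries used Python 3.11.15. The members, gene lists and rules were chosen with earlier results of these data known. Every member was named; values per heart were given for members past the threshold or without overlap on the brightest probe, the 3 highest and 3 lowest differences, Psmb5 to Psmb10, and pathway genes past the threshold or with the 2 smallest p. Some genes of the pathway list are not reported here by name. A few further values, such as those of the dimmer Psmd7 probe and Nfe2l1, were added after seeing the data. Alternatives changed the background correction, scaling, filter, test, replicate block or hearts used. The deposited table of values equals the processed signals and was not used separately.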

Additional observations from a re-analysis of the deposited data

Results flagged for a closer look

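Among the values given per heart, 2 of 40 groups of 4 hearts had 1 heart far from the others, by a gap over range above Dixon's 95% critical value for 4 values. Chance gives about 1 in 20 such groups. For Psmd1, SIRT1 KO replicate 2 was at 1.38, against 1.60, 1.63 and 1.64 in the other SIRT1 KO hearts, a gap of 0.846 of the range. For Psmb7, SIRT1 KO replicate 3 was at 3.32, against 3.07, 3.09 and 3.08, a gap of 0.922 of the range. Without SIRT1 KO replicate 2 the Psmd1 difference was still negative but did not pass (limma adjusted p = 0.0963).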

How the results depend on the processing

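Both member calls were negative under all 17 alternatives, but their side of the threshold was not stable. The 2 member probes called became 5 with normexp on the median signal, 4 with median scaling, 31 with no scaling, 1 with cyclic loess, and 0 without a filter on dim probes, with the methods' analysis of variance and with the replicate block. Counted as genes on the brightest probe, 2 became 4, 3, 26, 1, 0, 0 and 0. By unadjusted p under 0.05, 7 member probes passed as reported. All probes called numbered 2630 with normexp, 1784 with median scaling, 6352 with no scaling and 1060 with cyclic loess, against 1250. They numbered 988 without the filter, 546 by the analysis of variance and 1185 with the replicate block. The median of the 48 genes was -0.22 with median scaling and -0.31 with no scaling. The other pathway probes called numbered 5, 8, 26, 1 and 0 with normexp, median scaling, no scaling, no filter and the analysis of variance, against 3. Member probes without overlap numbered 8, 6, 10, 43 and 6 with normexp, quantile normalization, median scaling, no scaling and cyclic loess, against 3. Shares without overlap over all probes are not given for these processings, so nothing about the members is read from these counts. With no scaling, 81.0% of all probes were below 0, against 48.3% as reported. The brighter Sirt1 probe did not pass with median scaling (0.41), no scaling (0.32), no filter, the analysis of variance or the replicate block (0.54 each).

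With 1 heart left out the member probes called ranged from 0 to 5, the genes from 0 to 4, all probes from 657 to 1825, the median from -0.16 to -0.06, the pathway probes from 1 to 2, the probes without overlap from 3 to 25 and Sirt1 from 0.47 to 0.63. The genes below 0 rose from 38 to 44 with median scaling and to 48 of 48 with no scaling. Of those given per heart, directions turned with no scaling for Psma1 (-0.032), Psme3 (-0.023), Psmg4 (-0.057) and Psmb6 (-0.22), and with median scaling for Psmb6 (-0.13). Values near 0 turned with 1 heart left out: Psmb5 (-0.13 to 0.0018), Psmb6 (-0.075 to 0.039), Psmb8 (-0.28 to 0.060) and Psmb9 (-0.23 to 0.042). The cause of these changes was not tested. Same-numbered hearts correlated by 0.06 to 0.21 in their deviations, and all 8 hearts correlated best with their own number, a hint from the data only; the replicate block moved the member calls from 2 to 0 and the calls over all probes from 1250 to 1185. Normexp on the median signal and cyclic loess were chosen after seeing the data. Planned fits with normexp on the mean signal and with slide as a block were not run, the first because that column was not in the files used here and the second because each slide holds 1 genotype. Probes near background limit what can be said of Psmb11.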
